A study of Mus musculus with 6 samples.

Results

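The proteasome genes of the mouse heart were taken as every gene of the deposited table whose symbol is Psm followed by a letter from a to g and a number, which gave 48 of 57180 genes. Of these, 47 passed the filter on low counts (at least 10 counts in at least 3 hearts leaves the same 47), and the exception was Psmb11. Hearts came from male C57BL/6N mice of 6 to 8 weeks. The heat stroke group (HS, 3 hearts) was kept in a chamber at 40 °C without food and water until the rectal temperature reached 42 °C, and was then moved to 22 to 25 °C. The sham group (3 hearts) was also kept without food and water, at 22 to 25 °C, and humidity was 60 to 65% for both. The time between the end of heating and collection of the heart, the litter and the batch are not stated in the sources used here, so p-values measure the spread between these samples only. The labels name heart tissue, although their extraction text speaks of cell lines, and the ventricular marker Myl2 was between 4489 and 6880 CPM (counts per 1000000 counts of the library, on TMM-scaled library sizes) in every heart.

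The proteasome is the protease that removes most short-lived, misfolded and damaged proteins once they carry a ubiquitin chain. Its core particle is a barrel of alpha rings, which gate the entrance, and beta rings, which hold the catalytic sites. A regulatory particle sits on the barrel. Its base contains a ring of ATPases that unfolds the substrate, and its lid contains the deubiquitinase that takes off the chain. Under interferon, and in leukocytes at rest, 3 inducible subunits replace the constitutive catalytic subunits and form the immunoproteasome, which makes peptides for MHC class I molecules. When the proteasome is inhibited, the transcription factor Nfe2l1 raises the subunit genes together, and the heart depends on the system because cardiomyocytes are seldom replaced.

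No proteasome gene passed the test between HS and sham hearts (quasi-likelihood test of edgeR, Benjamini-Hochberg adjusted p under 0.05), and over the whole series 9 of 14717 genes (0.0612%) passed it. Most subunits nevertheless had a slightly lower level in the HS group. The log2 fold change was under 0 in 41 of 47 genes, against 7164 of 14717 over all genes tested. Its median was -0.14, against 0.01 over all genes tested. The shift was weak for HS heart 2, where 29 of the 47 genes fell under the sham mean (median log2 difference -0.03). For HS hearts 1 and 3 these numbers were 41 and 42, with medians of -0.18 and -0.16. At an unadjusted p under 0.05, 6 of 47 proteasome genes were lower in HS hearts, where the background is 4.76% of all genes tested, and 0 of 47 were higher, where the background is 8.83%. All HS hearts lay below all sham hearts in 16 of 47 genes (background 10.9%) and above all sham hearts in 0 of 47 (background 11.0%). The 6 genes were Psme2, Psmb8, Psmb3, Psmb6, Psmd6 and Psmb5. They belong to the activators, the inducible subunits, the beta ring (3 of them) and the lid, and none belongs to the alpha ring or the base. Psma2 of the alpha ring missed the limit narrowly (edgeR unadjusted p = 0.0501). With the filter of at least 10 counts in at least 3 hearts it passed (edgeR unadjusted p = 0.0499), so the rings are not set apart by this count.

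The libraries held 22098487 to 25855876 estimated counts, and 3 counts, the limit that a count of 0 allows, correspond to 0.108 to 0.152 CPM. Such limits cover counting error only. The heat shock gene Hspa1b was at 803, 1250 and 1373 CPM in HS hearts, against 2.91, 1.43 and 3.35 CPM in sham hearts. HS hearts differed among themselves: HS hearts 1 and 3 carried the atrial marker Myl7 at 653 and 477 CPM, against 0.158 CPM in HS heart 2 and 0 to 0.797 CPM in sham hearts. HS heart 3 stood farthest from the others (mean absolute log2 difference 0.47 to 0.57, against 0.23 to 0.36 for every pair without it), and mitochondrial ribosomal RNA took 2.75, 3.16 and 5.55% of counts in HS hearts and 1.67 to 1.69% in sham hearts. For this reason counts are given below also without HS hearts 1 and 3. In a tissue sample, fewer cells of a type and less RNA per cell cannot be told apart.

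Promoters are shown for Psmb6, Psmb5 and Psmb3, the beta ring genes among the 6, and for Psmb9, the inducible subunit with the lowest level. Each window runs from 250 bases before to 50 bases after the RefSeq gene start (GRCm38.p6) and is written in the direction of the gene. Capitals mark TGACNNNGC, the core of the antioxidant response element bound by Nfe2l1 and its relatives, in Psmb6 (chr11:70525107-70525406, + strand) and Psmb5 (chr14:54617946-54618245, - strand), and the NF-Y box CCAAT in Psmb3 (chr11:97703184-97703483, + strand) or its reverse complement in Psmb9 (chr17:34187281-34187580, - strand).
Psmb6: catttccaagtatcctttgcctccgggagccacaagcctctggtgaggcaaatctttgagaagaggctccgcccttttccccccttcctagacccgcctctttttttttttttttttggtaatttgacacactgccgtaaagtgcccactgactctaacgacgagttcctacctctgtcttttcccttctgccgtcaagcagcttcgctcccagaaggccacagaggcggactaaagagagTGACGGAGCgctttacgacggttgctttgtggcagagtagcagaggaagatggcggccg
Psmb5: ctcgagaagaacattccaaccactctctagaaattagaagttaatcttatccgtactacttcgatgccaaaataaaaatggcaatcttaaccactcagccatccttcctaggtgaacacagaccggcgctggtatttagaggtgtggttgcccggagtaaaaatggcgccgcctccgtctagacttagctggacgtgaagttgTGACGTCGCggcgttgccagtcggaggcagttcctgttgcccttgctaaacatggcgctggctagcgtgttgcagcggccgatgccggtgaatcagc
Psmb3: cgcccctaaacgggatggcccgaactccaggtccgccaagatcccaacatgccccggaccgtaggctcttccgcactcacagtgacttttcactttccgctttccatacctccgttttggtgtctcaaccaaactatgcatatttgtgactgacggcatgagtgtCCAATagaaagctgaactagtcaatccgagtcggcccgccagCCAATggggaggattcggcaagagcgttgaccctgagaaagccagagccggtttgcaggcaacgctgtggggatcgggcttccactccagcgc
Psmb9: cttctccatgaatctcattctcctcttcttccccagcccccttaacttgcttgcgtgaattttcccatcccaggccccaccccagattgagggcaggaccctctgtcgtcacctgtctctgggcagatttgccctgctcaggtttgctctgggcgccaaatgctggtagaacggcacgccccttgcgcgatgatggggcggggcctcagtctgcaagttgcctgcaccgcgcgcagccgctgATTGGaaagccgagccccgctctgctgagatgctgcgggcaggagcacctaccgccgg

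On these windows the TGACNNNGC match began 9 bases before the gene start in Psmb6 and 47 bases before it in Psmb5, and the CCAAT matches of Psmb3 began 85 and 43 bases before it. Of the 48 proteasome genes, 40 matched the promoter table by symbol. Searched on both strands, TGACNNNGC was present in 6 of these 40 genes (Psmb5, Psmb6, Psmc6, Psmd9, Psmd12 and Psme4), against 12.4% of 32851 promoters. CCAAT was present in 14 of 40, against 37.4% of promoters. GAANNTTC, a pair of heat shock element units, was found in 3 of 40 genes (Psmb5, Psmb9 and Psmf1), against 7.86% of promoters. The core of the interferon-stimulated response element, searched as GAAA, 2 bases of any kind and GAAA, was found in 5 of 40 (3.44% of promoters). These were Psmb3, Psmd4, Psmd9, Psme1 and Psmg4, and none of them is an inducible subunit. Matches of GAANNTTC and of this interferon core in the windows shown are not in capitals. No match of a motif overlapped a match of another in these windows. The Psmb9 window lies in a divergent promoter and shares 275 bases with that of Tap1, which encodes a subunit of the MHC class I peptide transporter. Tap1 was at 4.08, 4.07 and 2.85 CPM in HS hearts, against 5.42, 5.62 and 3.61 CPM in sham hearts, and these values overlapped.

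**Figure D1:**
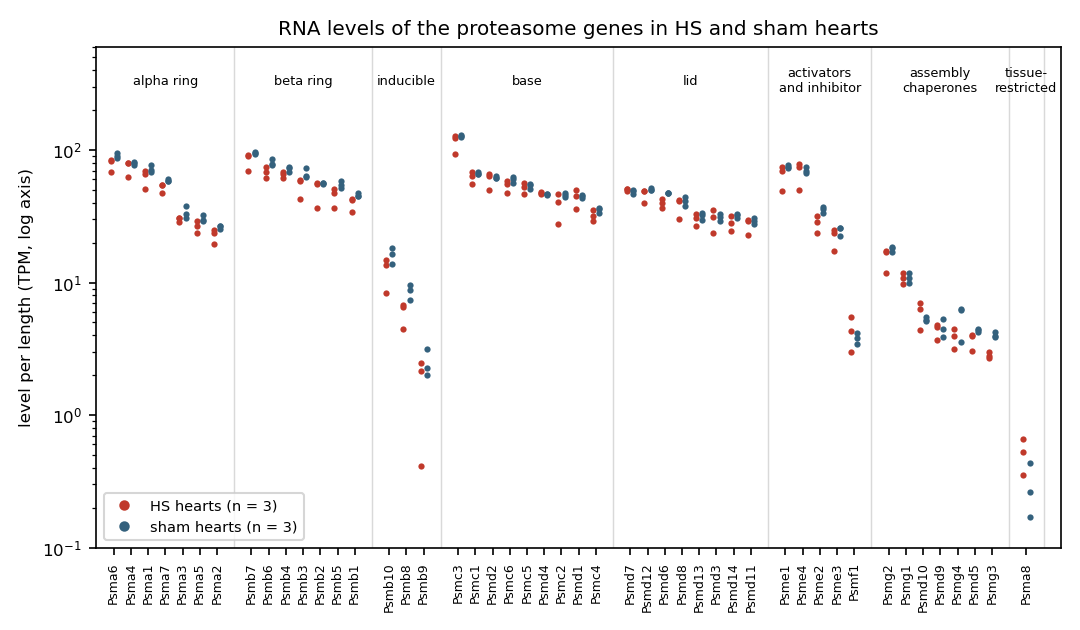
Level per length (TPM, log axis) of 47 proteasome genes and each of 6 hearts, grouped by part of the proteasome and ordered by level, with the HS hearts left of the sham hearts for each gene. The core, base and lid genes lie between 25.2 and 126 TPM in their median over hearts, the inducible subunits between 2.21 and 14.4 TPM. Psmb11 is not drawn.

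To place the subunits on a common scale, counts were divided by transcript length and scaled to the same total in every heart (TPM), which compares genes within a heart and is not corrected for the composition of HS heart 3. The alpha and beta ring genes had medians over all hearts of 25.2 to 92.6 TPM, the base of 34.3 to 126 TPM and the lid of 29.0 to 49.6 TPM. These ranges overlapped. The base ATPase Psmc3 had the highest level of all subunits, with 123, 127 and 93.6 TPM in HS hearts and 131, 127 and 125 TPM in sham hearts. The lowest ATPase, Psmc4, had 31.9, 35.4 and 28.9 TPM in HS hearts and 36.9, 35.6 and 33.2 TPM in sham hearts.

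In the rings the highest genes were the trypsin-like catalytic subunit Psmb7, with 89.9, 92.3 and 69.2 TPM in HS hearts and 94.7, 97.2 and 92.8 TPM in sham hearts, and Psma6 of the alpha ring. Psma6 had 83.5, 83.3 and 68.2 TPM in HS hearts and 90.5, 87.3 and 95.8 TPM in sham hearts. At the low end of the rings stood Psma2, with 24.9, 23.5 and 19.6 TPM in HS hearts and 26.9, 26.6 and 25.5 TPM in sham hearts. In the beta ring the lowest was Psmb1, a non-catalytic subunit, with 42.5, 42.1 and 33.9 TPM in HS hearts and 45.1, 45.1 and 47.6 TPM in sham hearts. Subunits that occupy equal places in the barrel therefore differed several-fold in the level of their RNA, in HS and in sham hearts alike. In the lid, Psmd7, the partner of the deubiquitinase, was highest with 50.5, 50.5 and 49.5 TPM in HS hearts and 46.9, 49.1 and 49.7 TPM in sham hearts, and Psmd11 was lowest with 29.0, 29.5 and 22.9 TPM in HS hearts and 30.6, 29.0 and 27.9 TPM in sham hearts.

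Outside the core and the regulatory particle the levels were more spread. The PA28 subunit Psme1 had 74.0, 69.0 and 49.3 TPM in HS hearts and 76.8, 74.1 and 73.1 TPM in sham hearts, whereas the PI31 gene Psmf1, which binds the core and was first described as an inhibitor, had 5.49, 4.31 and 2.98 TPM in HS hearts and 3.80, 4.17 and 3.45 TPM in sham hearts. Psme4, the nuclear activator PA200, reached 74.4 TPM in the median HS heart and 69.3 TPM in the median sham heart. Assembly chaperones were scarce, with Psmg2 highest at 17.0, 17.5 and 11.7 TPM in HS hearts and 17.1, 18.3 and 18.4 TPM in sham hearts. The lowest chaperone was Psmg3, at 2.70, 2.80 and 3.00 TPM in HS hearts and 3.98, 4.26 and 3.91 TPM in sham hearts. Tissue-restricted forms were near the limit of counting. Psma8, the testis form of Psma7, had 11, 14 and 14 counts in HS hearts and 8, 3 and 13 counts in sham hearts, and the thymus subunit Psmb11 had 1, 4 and 1 counts in HS hearts and 0 counts in every sham heart. The limit for a count of 0 in the sham hearts is 0.120 to 0.129 CPM, and the highest HS value of Psmb11 was 0.158 CPM.

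**Figure D2:**
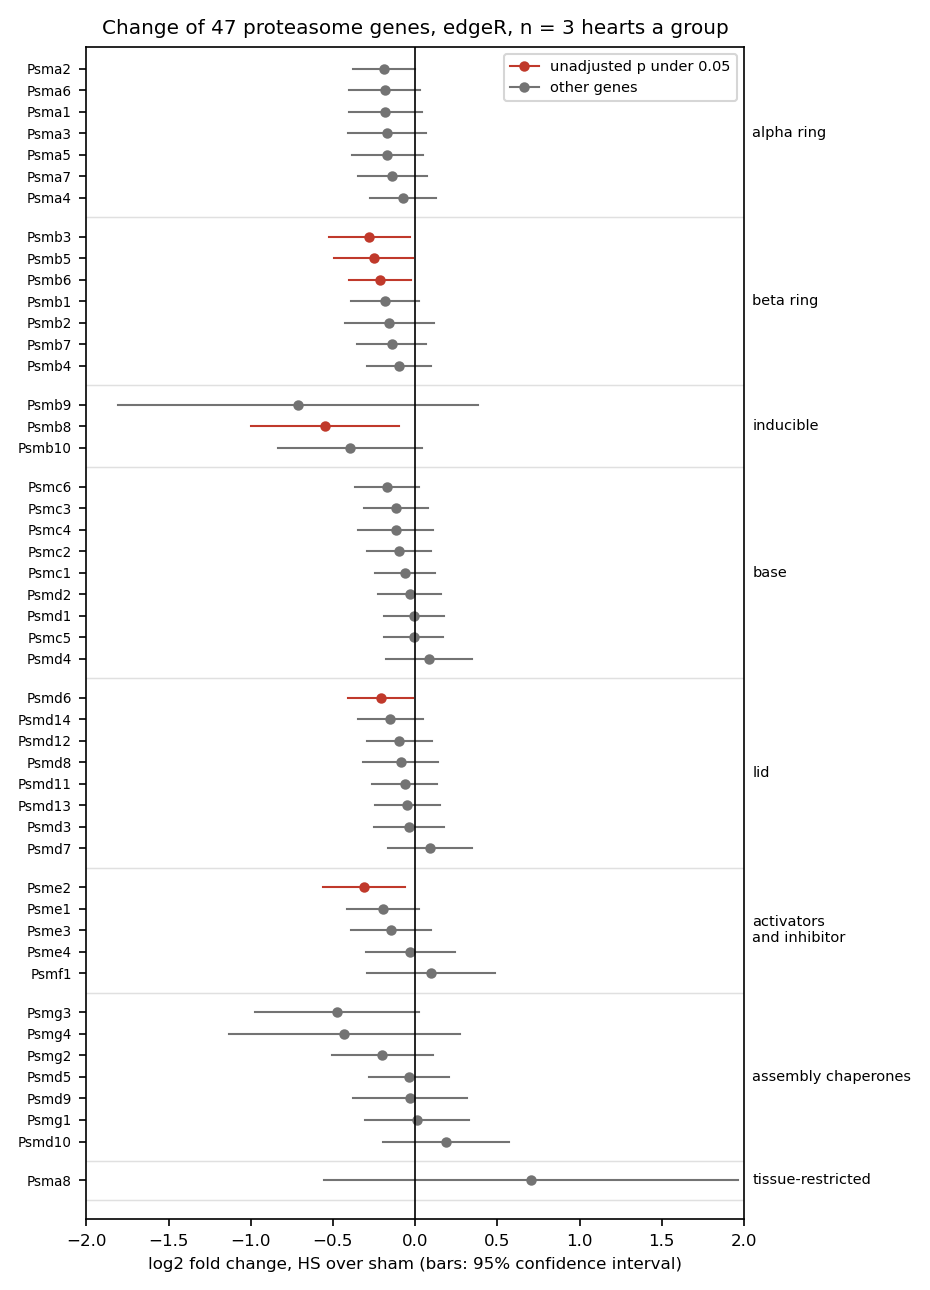
Log2 fold change of HS over sham hearts for 47 proteasome genes (points), with 95% confidence intervals (bars) from edgeR, 3 hearts a group. The 14 genes of the alpha and beta rings all lie left of 0, the 6 coloured genes have an unadjusted p under 0.05, and the interval of the near-absent Psma8 is the widest.

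Among the 14 genes of the alpha and beta rings, every fold change was under 0 on the log2 scale (-0.28 to -0.08, median -0.18). Of the 14, 3 were lower at an unadjusted p under 0.05 (background 4.76% of all genes tested). In 8 of them all HS hearts lay below all sham hearts (background 10.9%). Psmb3, a non-catalytic beta subunit, had 30.3, 34.6 and 28.3 CPM in HS hearts, against 40.2, 36.1 and 36.8 CPM in sham hearts. The groups did not overlap, and HS heart 2 was nearest to the sham hearts (log2 fold change -0.28, 95% confidence interval -0.52 to -0.03, edgeR adjusted p = 0.330). Without HS hearts 1 and 3 the log2 fold change of Psmb3 was -0.12. In the alpha ring, the smallest p belonged to Psma2, with 41.5, 43.0 and 39.7 CPM in HS hearts and 46.2, 46.3 and 49.3 CPM in sham hearts (log2 fold change -0.19, edgeR adjusted p = 0.367). No alpha gene had an unadjusted p under 0.05 in this fit, but Psma2 was next to this limit (edgeR unadjusted p = 0.0501). Psmb1 had 49.8, 55.4 and 51.7 CPM in HS hearts and 56.4, 57.8 and 63.6 CPM in sham hearts, again without overlap (log2 fold change -0.18, edgeR adjusted p = 0.408).

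The catalytic subunits of the constitutive core were followed heart by heart. Psmb5, which carries the chymotrypsin-like site, had 28.5, 34.2 and 28.6 CPM in HS hearts and 37.7, 36.0 and 35.1 CPM in sham hearts. HS heart 2 came within 1 CPM of the lowest sham heart, and without HS hearts 1 and 3 the log2 fold change was -0.08, against -0.25 with all hearts (edgeR adjusted p = 0.348). Psmb6, which carries the caspase-like site, had 39.6, 40.2 and 42.0 CPM in HS hearts and 48.7, 44.7 and 47.8 CPM in sham hearts. Here all HS hearts were close together and under the sham hearts (log2 fold change -0.21, 95% confidence interval -0.40 to -0.02, edgeR adjusted p = 0.334), and without HS hearts 1 and 3 the value was -0.23. Psmb7 had 69.9, 80.2 and 69.7 CPM in HS hearts and 78.3, 82.4 and 82.0 CPM in sham hearts. These groups overlapped through HS heart 2 (log2 fold change -0.14, edgeR adjusted p = 0.496).

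By the median log2 fold change, the inducible subunits were the lowest part of the proteasome in HS hearts relative to sham hearts. The log2 fold changes were -0.55, -0.71 and -0.40 for Psmb8, Psmb9 and Psmb10, and none passed at an adjusted p under 0.05. Single genes of another part were as low, since the assembly chaperones Psmg3 and Psmg4, which had few counts, were at -0.47 and -0.43. Psmb8 (chr17:34197721-34201454, + strand, mm10), the counterpart of Psmb5, had 4.69, 5.61 and 3.96 CPM in HS hearts, against 6.90, 8.18 and 5.84 CPM in sham hearts. HS heart 2 and sham heart 3 were separated by little, and the log2 fold change had a standard error of 0.19 (edgeR adjusted p = 0.313). Psmb9 (chr17:34181987-34187764, - strand), the counterpart of Psmb6, had 1.95, 2.29 and 0.51 CPM in HS hearts and 3.11, 2.39 and 2.40 CPM in sham hearts. The value of HS heart 3 rested on 10 counts, and the 95% confidence interval ran from -1.81 to 0.38 (edgeR adjusted p = 0.512). The groups of Psmb9 were apart on the CPM scale but overlapped per length. There it had 2.16, 2.47 and 0.41 TPM in HS hearts and 3.13, 2.00 and 2.26 TPM in sham hearts. Psmb10 (chr8:105935735-105938444, - strand), the counterpart of Psmb7, had 10.6, 12.5 and 7.62 CPM in HS hearts and 14.5, 13.8 and 12.2 CPM in sham hearts, which overlapped (edgeR adjusted p = 0.396). In each of these 3 genes HS heart 3 was the lowest of all 6 hearts. Without HS hearts 1 and 3, the log2 fold changes were -0.31, -0.20 and -0.11.

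**Figure D3:**
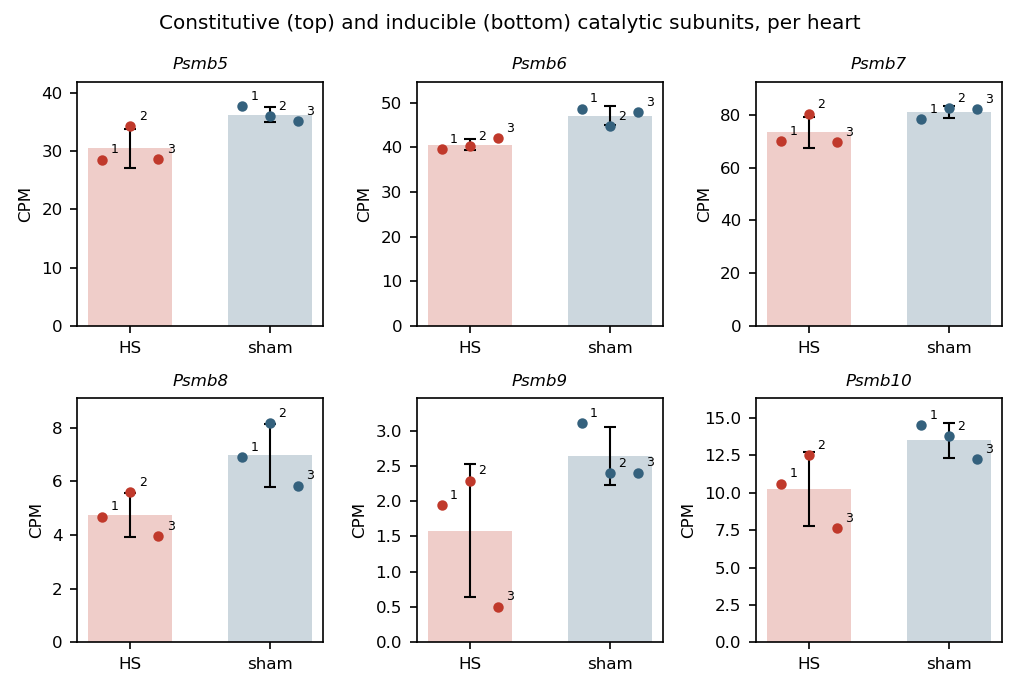
CPM of the constitutive catalytic subunits Psmb5, Psmb6 and Psmb7 (top) and of the inducible subunits Psmb8, Psmb9 and Psmb10 (bottom), with HS left of sham. Points are hearts with their number, bars the mean and error bars the SD of 3 hearts. Psmb8 averaged 4.75 ± 0.823 CPM in HS hearts and 6.97 ± 1.17 CPM in sham hearts, and HS heart 3 is the lowest point in every lower panel.

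Each inducible subunit was then divided by its constitutive counterpart within the same heart, which does not depend on library size. Psmb8 stood at 16.5, 16.4 and 13.9% of Psmb5 in HS hearts and at 18.3, 22.8 and 16.6% in sham hearts, on the CPM scale. All HS hearts lay under all sham hearts, by a margin of less than 1 percentage point between the nearest hearts, and the mean log2 ratio differed by -0.29 (two-sided exact permutation p = 0.1, the smallest that 3 against 3 hearts allow). Psmb9 stood at 4.92, 5.70 and 1.21% of Psmb6 in HS hearts and at 6.39, 5.36 and 5.03% in sham hearts (difference -0.72, exact permutation p = 0.4). This difference rested on HS heart 3: without it, the value was -0.06, and without HS hearts 1 and 3 it was 0.04. Per length, the difference for Psmb9 to Psmb6 with all hearts was -0.65 (exact permutation p = 0.9). Psmb10 stood at 15.2, 15.6 and 10.9% of Psmb7 in HS hearts and at 18.5, 16.8 and 14.9% in sham hearts (difference -0.28, exact permutation p = 0.3), and without HS heart 3 the difference was -0.11. Over these 3 ratios no p fell under 0.05, which this number of hearts cannot reach.

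Leukocytes carry inducible subunits, and most of their markers had fold changes of the same sign. Of 8 markers, 6 could be tested, with log2 fold changes from -0.49 (Cd68) to -0.01 (Csf1r). The macrophage marker Csf1r was thus level, with a mean of 24.6 CPM in HS hearts and 24.8 CPM in sham hearts. Of the 6, only Ptprc (CD45) was lower at an unadjusted p under 0.05, where the background is 4.76% of all genes tested. Ptprc had 8.95, 9.64 and 7.37 CPM in HS hearts and 12.5, 11.0 and 10.6 CPM in sham hearts (log2 fold change -0.39, edgeR adjusted p = 0.321). The summed level of the 8 markers was 146 to 177 CPM in HS hearts and 169 to 206 CPM in sham hearts. Lyz2 made up most of this sum, with 91.9, 113 and 89.7 CPM in HS hearts and 132, 130 and 103 CPM in sham hearts. The T cell marker Cd3e was at 0 to 0.086 CPM in all hearts, under the limit that a count of 0 allows. The part of leukocytes in the values of Psmb8, Psmb9 and Psmb10 was not tested.

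Of the interferon and MHC class I list, 11 of 11 genes could be tested (median log2 fold change 0.05). At an unadjusted p under 0.05, 0 were lower (background 4.76%) and 0 were higher (background 8.83%). Irf1, a transcription factor that drives inducible subunits, had 12.6, 18.0 and 14.1 CPM in HS hearts and 12.4, 11.9 and 11.5 CPM in sham hearts (log2 fold change 0.32, edgeR adjusted p = 0.399). Tapbp, the tapasin that loads peptides onto MHC class I, had 31.2, 27.6 and 34.2 CPM in HS hearts and 40.2, 34.7 and 34.5 CPM in sham hearts (log2 fold change -0.23, edgeR adjusted p = 0.406). Irf1 was thus above, and Tapbp below, the sham hearts in every HS heart, by a narrow margin in both. The other named genes were Tap1 (log2 fold change -0.41, edgeR adjusted p = 0.468) and Pdia3. The disulfide isomerase Pdia3 reached 386 CPM in HS heart 3 but 133 and 150 CPM in HS hearts 1 and 2, and its sham hearts ranged from 107 to 181 CPM (log2 fold change 0.62, edgeR adjusted p = 0.540).

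In the base, 0 of 9 genes had an unadjusted p under 0.05 (background 4.76% lower and 8.83% higher). The median log2 fold change was -0.06. The smallest p belonged to the ATPase Psmc6, with 80.7, 83.8 and 81.4 CPM in HS hearts and 85.6, 95.6 and 95.9 CPM in sham hearts (log2 fold change -0.17, edgeR adjusted p = 0.404). Psmc6 was the only base gene with all HS hearts below all sham hearts. For the scaffold Psmd1 and the ATPase Psmc5 the log2 fold change was -0.01, with 95% confidence intervals of -0.19 to 0.18 and -0.19 to 0.17. The ubiquitin receptor Psmd4 was at 41.7, 46.3 and 54.0 CPM in HS hearts and 43.2, 44.0 and 46.7 CPM in sham hearts, with the highest and the lowest value both in HS hearts (log2 fold change 0.08).

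The lid had 1 of 8 genes lower at an unadjusted p under 0.05 (background 4.76%) and a median log2 fold change of -0.08. This gene was Psmd6, a scaffold subunit, with 39.0, 41.1 and 43.0 CPM in HS hearts and 45.4, 47.4 and 49.5 CPM in sham hearts (log2 fold change -0.21, 95% confidence interval -0.41 to -0.01, edgeR adjusted p = 0.344). The groups were apart, and without HS hearts 1 and 3 the value was also -0.21. The deubiquitinase Psmd14 was also apart, at 32.2, 32.5 and 31.9 CPM in HS hearts and 34.6, 34.4 and 38.2 CPM in sham hearts, with an edgeR adjusted p of 0.461. In contrast, Psmd7, the inactive partner of Psmd14, was at 53.1, 59.6 and 67.2 CPM in HS hearts and 52.7, 56.6 and 59.7 CPM in sham hearts, and these overlapped (log2 fold change 0.09, edgeR adjusted p = 0.722).

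**Figure D4:**
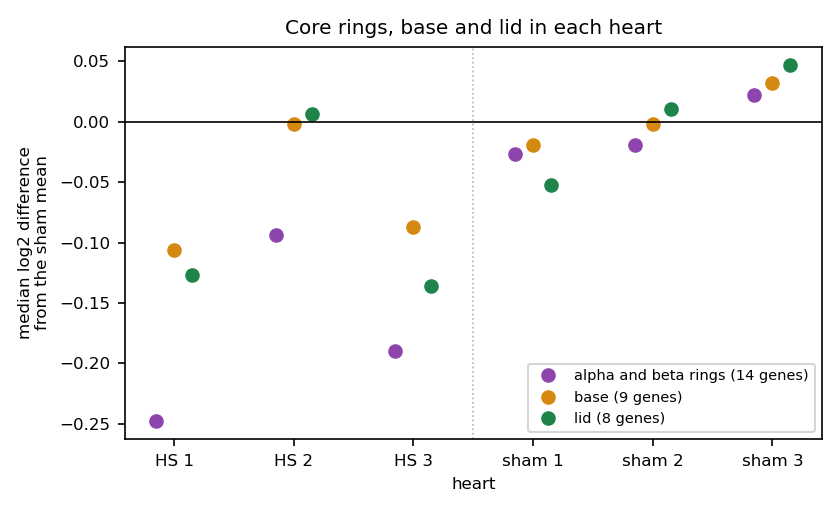
Median log2 difference from the sham mean over the genes of the alpha and beta rings (14), the base (9) and the lid (8) in each of 6 hearts, with HS hearts left of sham hearts. In each HS heart the rings lie below the base and the lid.

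Core and regulatory particle were compared within hearts. Relative to the sham mean, the ring genes had a median log2 difference of -0.25, -0.09 and -0.19 in HS hearts, and in single sham hearts it was -0.03, -0.02 and 0.02. For the base the medians were -0.11, -0.00 and -0.09 in HS hearts and -0.02, -0.00 and 0.03 in sham hearts, and for the lid they were -0.13, 0.01 and -0.14 in HS hearts and -0.05, 0.01 and 0.05 in sham hearts. The rings thus lay under the base by 0.09 to 0.14 in HS hearts, with differences of -0.14, -0.09 and -0.10. In sham hearts the differences were -0.01, -0.02 and -0.01. Sham hearts were measured from their own mean, which holds their values near 0, so these show only the spread among sham hearts. Against the lid, the differences were -0.12, -0.10 and -0.05 in HS hearts and 0.03, -0.03 and -0.02 in sham hearts. With HS heart 2 alone against the sham hearts, the medians were -0.09 for the rings, -0.00 for the base and 0.01 for the lid. No test was made of these medians, since genes are not replicates.

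Ring genes are also short, and in these libraries the fold change moved with transcript length. The main transcript had a median length of 1163 bases in the rings, 1636 in the base and 1743 in the lid. Across 47 proteasome genes, Spearman's rho between this length and the log2 fold change was 0.56, and across 14524 genes with a length it was 0.25, all from the same 6 libraries. The median log2 fold change over all tested genes was -0.11 for main transcripts shorter than 1000 bases, -0.06 from 1000 to 2000 bases, -0.00 from 2000 to 4000 bases and 0.10 above. The part of length in the difference between the rings and the regulatory particle was not tested.

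Of the activators and the inhibitor, 1 of 5 genes was lower at an unadjusted p under 0.05 (background 4.76%). This was Psme2, the beta subunit of the interferon-inducible activator PA28, with 18.1, 22.1 and 18.9 CPM in HS hearts and 25.0, 24.5 and 23.8 CPM in sham hearts (log2 fold change -0.31, 95% confidence interval -0.56 to -0.06, edgeR adjusted p = 0.304). Psme2 had the smallest p of all proteasome genes, and the groups did not overlap. Without HS hearts 1 and 3 its log2 fold change was -0.15. Its counts are uncertain to the extent that reads are shared with the processed copy Psme2b, which was assigned 0.974, 1.66 and 1.47 CPM in HS hearts and 1.36, 0.336 and 1.03 CPM in sham hearts. Its partner Psme1 lay beside it on chromosome 14 and had 54.6, 56.8 and 47.2 CPM in HS hearts and 60.9, 59.3 and 61.6 CPM in sham hearts, also without overlap (log2 fold change -0.20, edgeR adjusted p = 0.401). Psme3, Psme4 and Psmf1 had log2 fold changes of -0.15, -0.03 and 0.09, and their groups overlapped.

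The assembly chaperones had 0 of 7 genes at an unadjusted p under 0.05 (background 4.76% lower and 8.83% higher). Their median log2 fold change was -0.04. Psmg3, which helps to build the alpha ring, had 46, 52 and 44 counts in HS hearts and 64, 67 and 67 counts in sham hearts. On the CPM scale its groups were apart (log2 fold change -0.47, 95% confidence interval -0.97 to 0.03, edgeR adjusted p = 0.382). The base chaperone Psmd10 (gankyrin) was at 5.99, 7.46 and 5.44 CPM in HS hearts and 5.18, 5.75 and 5.67 CPM in sham hearts. It was the gene highest above sham among those not near the limit of counting (log2 fold change 0.19, edgeR adjusted p = 0.609), and HS heart 3 lay among the sham hearts.

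Large changes of the core and the regulatory particle could be bounded. The 95% confidence interval lay within a 1.5-fold change in either direction for all 14 ring genes, all 9 base genes and all 8 lid genes, and for 41 of 47 proteasome genes in all, against 45.0% of all genes tested. The exceptions were Psma8, Psmb8, Psmb9, Psmb10, Psmg3 and Psmg4. Within a 1.25-fold change lay 15 of 47 intervals, against 11.3% of all genes tested. Together the proteasome genes took 0.229, 0.230 and 0.187% of counts in HS hearts and 0.240, 0.237 and 0.237% in sham hearts. Their summed level was 2138, 2319 and 2103 CPM in HS hearts and 2317, 2326 and 2389 CPM in sham hearts, so that HS heart 2 exceeded sham heart 1 by 2 CPM.

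How many genes were lower at an unadjusted p under 0.05 depended on single hearts. The number was 6 with all hearts, 0 without HS heart 1, 11 without HS heart 2 and 8 without HS heart 3. It was 0, 1 and 2 without sham heart 1, 2 and 3. Without HS hearts 1 and 3 it was 3 (Psmb6, Psmd6 and Psma3), and 1 gene, Psmd10, was then higher. In none of these fits did a proteasome gene pass at an adjusted p under 0.05 by edgeR.

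Genes that work on or with the proteasome were examined from 2 lists. Of 18 partners (shuttling factors, deubiquitinases, assembly and import factors), 17 were in the table and tested. At an unadjusted p under 0.05, 2 of these 17 (11.8%) were higher in HS hearts, where the background is 8.83% of all genes tested. None was lower, where the background is 4.76%. Together with the regulators below, 2 of 29 genes (6.90%) were higher, so these counts are near the background. Ubqln1, a shuttling factor that brings ubiquitylated proteins to the proteasome, had 49.1, 54.9 and 68.5 CPM in HS hearts and 45.6, 42.8 and 42.9 CPM in sham hearts (log2 fold change 0.39, edgeR adjusted p = 0.297). Zfand2a, a stress-inducible factor that binds the regulatory particle, had 12.1, 15.0 and 16.2 CPM in HS hearts and 11.3, 10.5 and 10.7 CPM in sham hearts (log2 fold change 0.41, edgeR adjusted p = 0.298). All HS hearts exceeded all sham hearts in both, by little in HS heart 1. Zfand5 and Ubqln2 had log2 fold changes of -0.14 and 0.17 (edgeR adjusted p = 0.489 and 0.514). The maturation factor Pomp, with which the barrel is assembled, was at 46.1, 46.1 and 52.6 CPM in HS hearts and 45.4, 48.9 and 47.5 CPM in sham hearts.

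Of the 12 regulators, 0 were lower (background 4.76%) or higher (background 8.83%) at an unadjusted p under 0.05. Nfe2l1 had 301, 300 and 287 CPM in HS hearts and 322, 312 and 318 CPM in sham hearts, which were apart by a small margin (log2 fold change -0.10, edgeR adjusted p = 0.566). Nfya, the subunit of NF-Y that reads the CCAAT box shown above, had 15.9, 17.7 and 24.1 CPM in HS hearts and 15.0, 14.6 and 14.9 CPM in sham hearts (log2 fold change 0.37, edgeR adjusted p = 0.372). HS heart 3 was the highest and HS heart 1 the nearest to sham. Maff, Ngly1 and Mafk had log2 fold changes of 0.95, 0.14 and 0.50 (edgeR adjusted p = 0.529, 0.530 and 0.538). For Maff the level of 18.7 CPM in HS heart 3 stood against 3.10 and 5.37 CPM in HS hearts 1 and 2 and 3.48 to 5.66 CPM in sham hearts.

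**Figure D5:**
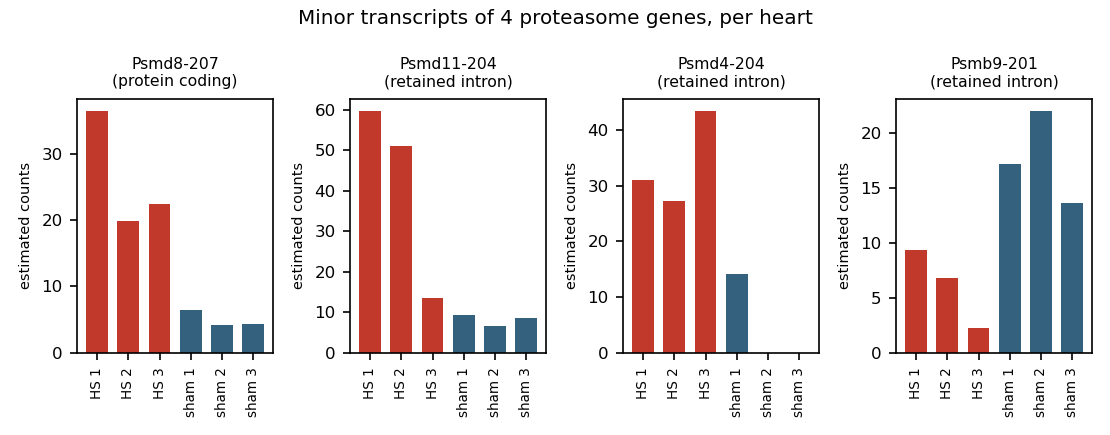
Estimated counts of minor transcripts of Psmd8, Psmd11, Psmd4 and Psmb9 in each of 6 hearts, HS hearts left and sham hearts right. The first 3 are higher in every HS heart than in any sham heart, and Psmb9-201 is lower. The error of the assignment of reads to transcripts is unknown.

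The table also separates the proteasome genes into 274 transcripts, of which 99 passed the filter. At an unadjusted p under 0.05, 2 of 99 were higher in HS hearts (background 5.73% of 30933 transcripts) and 5 of 99 were lower (background 3.88%), and 0 passed at an adjusted p under 0.05 by edgeR. Both higher transcripts were minor forms of regulatory particle genes whose totals did not follow. Psmd8-207, a protein-coding form of the lid gene Psmd8, had 36.5, 19.9 and 22.5 estimated counts in HS hearts and 6.37, 4.13 and 4.35 in sham hearts (log2 fold change 2.45, edgeR adjusted p = 0.224). This form made up 3.47, 1.81 and 3.17% of the counts of Psmd8 in HS hearts and 0.592, 0.413 and 0.467% in sham hearts, and the groups were far apart. Psmd8 as a whole was at 38.0, 43.5 and 36.1 CPM in HS hearts and 42.9, 42.0 and 40.0 CPM in sham hearts.

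Psmd11-204, a form with a retained intron of the lid gene Psmd11, had 59.7, 51.1 and 13.4 estimated counts in HS hearts and 9.31, 6.48 and 8.54 in sham hearts (log2 fold change 2.26, edgeR adjusted p = 0.334). HS hearts 1 and 2 were far above, and HS heart 3 was nearer to the sham hearts. Leaving out any 1 heart kept both transcripts at an unadjusted p under 0.05, and without HS hearts 1 and 3 this held for Psmd11-204 but not for Psmd8-207. A transcript with a retained intron was chosen after its values were seen from the ubiquitin receptor Psmd4: Psmd4-204 had 31.1, 27.2 and 43.4 estimated counts in HS hearts and 14.2, 0 and 0 in sham hearts (edgeR adjusted p = 0.565). The lower transcripts were Psmb6-201, Psme2-208, Psmb3-201 and Psmc6-201, which carry most counts of their genes, and Psmb9-201. Psmb9-201 retains an intron and had 9.33, 6.78 and 2.20 estimated counts in HS hearts and 17.2, 22.0 and 13.6 in sham hearts (log2 fold change -1.61, edgeR adjusted p = 0.471). Over all proteasome genes, transcripts with a retained intron took 2.00, 2.20 and 2.44% of counts in HS hearts and 2.04, 1.85 and 1.78% in sham hearts, which overlapped. In Psmc2, a transcript that is not in the annotation used for lengths (GENCODE vM21) held 0.02, 69.5 and 246 estimated counts in HS hearts and 0, 0.52 and 0 in sham hearts, so that the level per length of Psmc2 leaves these counts out.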

How the data were processed

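RNA of 3 HS and 3 sham hearts was sequenced from poly(A)-selected libraries, 1 per heart. The authors used fastp for cleaning and Hisat2 for alignment, and the deposited values are estimated counts of single transcripts, without scaling for depth or length. The submitters' build is mm10. Which program estimated the counts, on which annotation and in which version, is not given in the sources used here.

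Estimated counts of 149132 transcripts were summed per gene and rounded, and filterByExpr kept 14717 genes (settings: count 10, total 15). TMM scaling, quasi-likelihood fits in edgeR 4.0.16 (group as the only term, robust) and Benjamini-Hochberg adjustment over all genes tested were used, with R 4.3.3. Intervals are 95% confidence intervals of this fit. Log2 CPM carried a prior count of 2. TPM used transcript lengths of GENCODE vM21 (GRCm38), which covered 99.1% of counts, and gene coordinates are from the same annotation. Promoters are from RefSeq (GRCm38.p6). The gene-level fits of edgeR, DESeq2 and limma-voom were tested on simulated counts; the other steps were not simulated.

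The proteasome genes and all lists were chosen with earlier results of these data known. Named were the catalytic subunits with their inducible counterparts, the 12 genes with the smallest p, the highest and lowest gene per length of each part, and up to 4 genes of smallest p from each list. Others named were chosen after their values were seen. Paaf1, a partner, was not matched by symbol. Other marker lists were counted at an unadjusted p under 0.05 (background 8.83% higher and 4.76% lower). The HS group was higher in 3 of 3 tested atrial, 4 of 4 smooth muscle, 1 of 5 fibroblast and 1 of 1 adipocyte markers. For erythroid markers this was 0 of 3. The HS group was lower in 2 of 6 ventricular and 1 of 5 endothelial markers. Of the higher markers, Nppa, Acta2 and Col1a1 had groups that were apart. For Myl7, Myl4, Myh11, Tagln, Cnn1 and Cfd, HS heart 2 fell within the sham range. Alternatives were other scalings, filters and tools (DESeq2 1.42.0, limma-voom with limma 3.58.1), a replicate block, single transcripts and leaving out hearts. The omission of hearts from the transcript fits was added after seeing the data. Where only HS heart 2 was left, its spread was taken to equal that of the sham group.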

Additional observations from a re-analysis of the deposited data

How the results depend on the processing

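The count of proteasome genes at an adjusted p under 0.05 was 0 in all 18 alternatives, with edgeR, DESeq2 and limma-voom. Over all genes this count was 9, against 16 with library sizes only, 84 without a filter, 4 with at least 10 counts in every heart, 342 with DESeq2, 18, 287 and 93 without HS heart 1, 2 and 3, 3, 3 and 2 without sham heart 1, 2 and 3, and 129 without HS hearts 1 and 3. The count of higher genes at an unadjusted p under 0.05 was 0 with all hearts, 1 without a filter, 1 without HS hearts 1 and 3, and 2 with each transcript tested on its own. The count of lower genes was 6, and it was 3 with the replicate block, 3 without HS hearts 1 and 3, and 0 to 11 when leaving out 1 heart. The count of partner and regulator genes at an unadjusted p under 0.05 was 2, and 0 to 5 when leaving out 1 heart. Without HS hearts 1 and 3 the median log2 difference was -0.094 for the rings (main value -0.18), -0.0018 for the base (-0.06) and 0.0066 for the lid (-0.08), and the log2 ratio of Psmb9 to Psmb6 turned to 0.040 (-0.72). The cause was not tested. The 14 genes followed were the 12 with the smallest p, Psmb7 and Psmb9, and their log2 fold changes kept their sign under every alternative run. The 12 were chosen by p in these same hearts, which favours a stable sign. Other named genes were not followed in this way. The main fit did not pair hearts by replicate number, and deviations of same-numbered hearts correlated at -0.06, 0.13 and 0.01. These 3 values cannot show whether same-numbered hearts shared a litter or batch. With 3 hearts a group, small shifts of single subunits lie near the limit of what these data can show.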
